A study of Mus musculus with 9 samples.

Results

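The tubulin tyrosine ligase-like (TTLL) enzymes were followed in RNA-seq of sorted inner ear hair cells (HCs), the mechanosensory cells of the cochlea and vestibule. They were found by gene symbol, and 10 of the 43808 genes in the count tables were members. 3 were glycylases (Ttll3, Ttll8 and Ttll10) and 7 were glutamylases (Ttll1, Ttll4, Ttll5, Ttll6, Ttll7, Ttll9 and Ttll11). The genes were chosen by family, with the CPM and the genotype fold changes of these same libraries in view. Every level and fold change of a member is therefore a description of these animals. Where the text says that a member was or was not called in a fit, that too is a description and no independent test, and no member's p-value is printed.

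Each library came from 1 mouse at P1, with 3 homozygous mutant (Mir96Dmdo/Dmdo), 3 heterozygous (Mir96+/Dmdo) and 3 wild-type (Mir96+/+) animals. All 9 animals carried the Atoh1/nGFP transgene, which marks HCs with nuclear GFP, and cells positive for GFP and for the epithelial protein CD326 were collected from cochlea and vestibule together. The Dmdo (diminuendo) allele is a point mutation in the seed of miR-96, which is expressed in sensory cells, and the study compared genotypes to find the genes that change in mutant HCs. Dmdo mice on the C3HeB/FeJ background had been crossed to Atoh1/nGFP mice on C57BL6, so strain alleles linked to Mir96 and the mutation itself cannot be told apart.

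TTLL enzymes add amino acids to the tails of tubulin and of some other proteins. Glycylases add glycine and glutamylases add glutamate, and both marks are abundant on the stable microtubules of axonemes, the cores of cilia. The 2 marks compete for sites on the tails. Each HC carries a kinocilium beside its stereocilia during development, and its cytoplasm is rich in modified microtubules.

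MicroRNAs bind mainly through bases 2 to 8 from the 5′ end, the seed, so the 2 forms of miR-96-5p are shown to make clear what differs between the genotypes. The mature sequence is RefSeq's (GRCm38.p6, chr6:30169506-30169528, minus strand), capitals mark the seed, and the Dmdo form carries the substitution A7U, counted from the 5′ end.
miR-96-5p: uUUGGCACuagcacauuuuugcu
miR-96-5p, Dmdo form: uUUGGCUCuagcacauuuuugcu

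The DNA match to the wild-type seed is GTGCCAA and that to the Dmdo seed is GAGCCAA, and both were searched on the transcript strand of annotated 3′ UTRs. In the longest 3′ UTR of each gene, GTGCCAA was found in 0 of the 10 members, against 9.82% of the 12972 protein-coding genes tested. GAGCCAA was found once, in Ttll4, against 10.4% of those genes. The Ttll4 3′ UTR was 6031 bases long, against a median of 1217 bases, and the match began at base 912. When every annotated transcript was searched, GAGCCAA was also found in 4 of the 7 Ttll5 transcripts with a 3′ UTR. In the first of these it began at base 509 of a UTR of 619 bases, and its position in the others is not given. The sites are shown because they are the only matches in the family, with the match in capitals. Ttll4 is on chromosome 1 and Ttll5 on chromosome 12.
Ttll4: tgaggaagtaGAGCCAAggaaggaggc
Ttll5: ggggggtgggGAGCCAAcagcaccggc

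The Ttll3 3′ UTR was 580 bases long, and those of Ttll8 and Ttll10 were 134 and 73 bases. None of the annotated transcripts of the 3 glycylases held either match. A match is only a run of letters, and its absence says nothing about regulation.

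The libraries held 18175317 to 34873964 counts, and 9 of the 10 members were among the 15184 genes that passed the low-count filter (at least 20 reads in at least 2 of 3 replicates of any genotype). All 8 HC markers were detected in every library. Their summed level was 8451 to 9814 CPM (counts scaled to 1000000 per library) in homozygous HCs, 9989 to 13056 CPM in heterozygous HCs and 10245 to 14269 CPM in wild-type HCs. 1 of the 8, Espn, was called lower in homozygous HCs (edgeR quasi-likelihood test, Benjamini-Hochberg adjusted p = 0.0236). Over all genes, 1.15% were called in either direction. With DESeq2 on the same libraries, the study also listed Myo7a, Otof and Gfi1 as downregulated. Markers of mesenchyme summed to 18.4 to 272 CPM in homozygous, 14.5 to 32.1 CPM in heterozygous and 25.6 to 74.5 CPM in wild-type HCs. Those of Schwann cells summed to 102 to 257, 83.7 to 115 and 50.4 to 203 CPM in the same order, and those of supporting cells to 867 to 1056, 969 to 1322 and 938 to 1487 CPM. The 6 neuronal markers summed to 186 to 280, 257 to 268 and 173 to 272 CPM in that order. Most of this was Isl1 (mean 105 to 119 CPM per genotype) and Eya2 (116 to 140 CPM). Neurod1 reached 11.5 CPM in homozygous HCs and 0.09 CPM in wild-type HCs. Prph and Tubb3 went the other way, with at most 0.11 and 0.17 CPM in homozygous HCs and 14.4 and 14.0 CPM in wild-type HCs. Scn9a was at 0 in every library. Blood and macrophage markers summed to 0.17 to 7.60 CPM in homozygous, 0 to 8.55 CPM in heterozygous and 0 to 0.10 CPM in wild-type HCs, with Ptprc, Csf1r and C1qa detected and Hbb-bs and Hba-a1 at 0. The part of these cell types in the results below was not tested. Homozygous replicate 46 and wild-type replicate 59 stood apart from their groups in an earlier look at these data, and no measure of this is given here. The study's methods name no replicate, but state that RNA integrity was lower in a homozygous and in a wild-type sample than in the others. Whether these are the same libraries is not known. Mir96 itself had 0.06 to 0.28 CPM in homozygous, 0 to 8.95 CPM in heterozygous and 0.09 to 26.7 CPM in wild-type HCs. A point mutation does not remove its reads, so these values do not check the labels.

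Homozygous and wild-type libraries did not overlap for 16.9% of all genes and, among the members, only for Ttll3. This gene encodes a glycylase that starts the chain by adding the first glycine, and it lies on chromosome 6 (GRCm38, GENCODE M21 annotation, chr6:113389260-113414587, plus strand, 16 merged exons), 83.2 Mb from Mir96. It had 71.7, 103 and 64.2 CPM in homozygous replicates 43, 46 and 47, then 117, 321 and 220 CPM in heterozygous replicates 45, 48 and 51, and 244, 316 and 382 CPM in wild-type replicates 44, 55 and 59. All 3 homozygous libraries lay below every heterozygous and every wild-type library, whereas heterozygous replicate 48 lay inside the wild-type range and replicates 45 and 51 below it. The mean was 79.5 ± 20.4 CPM in homozygous, 219 ± 102 CPM in heterozygous and 314 ± 69.2 CPM in wild-type HCs (SD, n = 3 each). The log2 fold change was −2.07 (SE 0.34) in homozygous against wild-type HCs, a level 4.19-fold lower, and −1.46 (SE 0.33) in homozygous against heterozygous HCs.

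**Figure D1:**
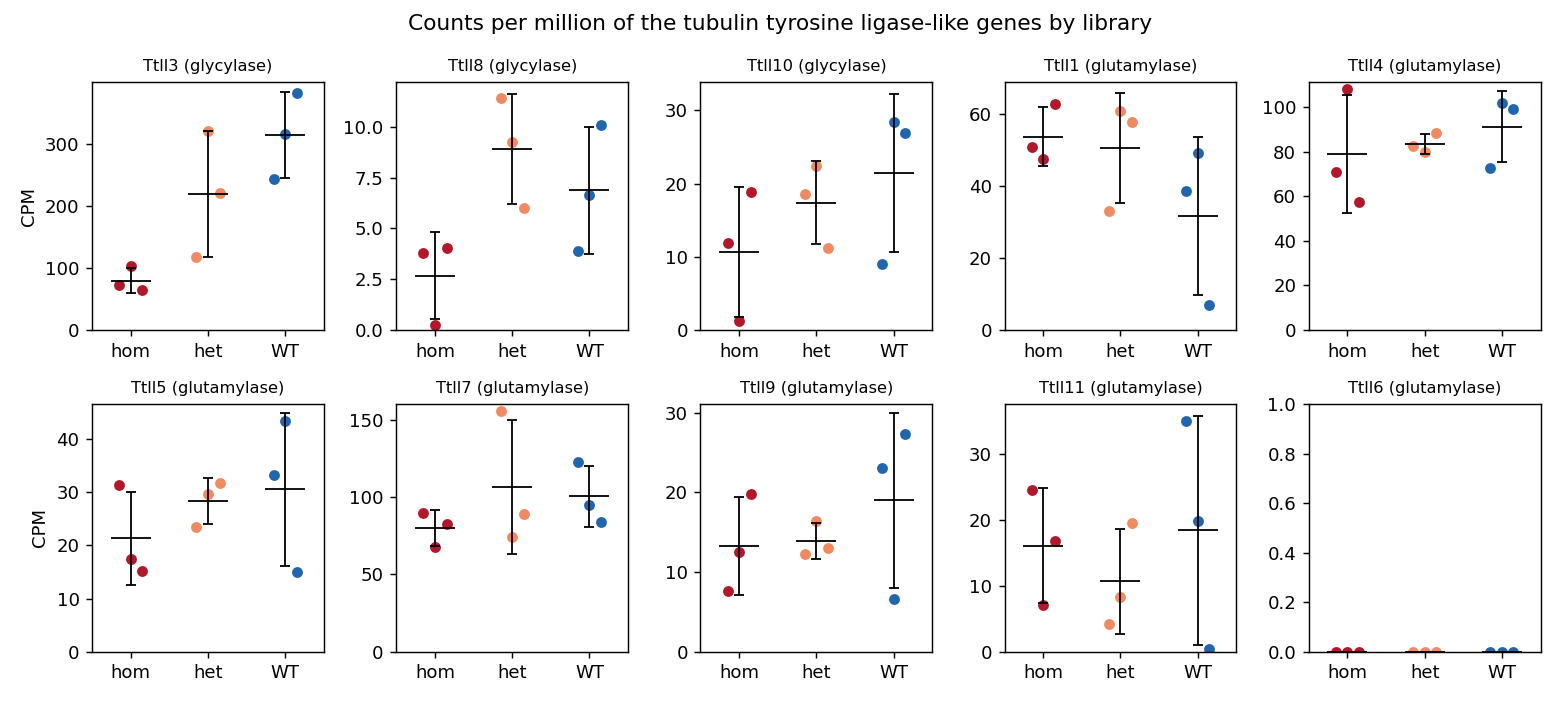
CPM of the 10 members by genotype, with 1 point per library and a bar and whiskers for the mean and SD of 3 libraries. hom, homozygous; het, heterozygous; WT, wild-type; each panel has its own axis from 0. Ttll3 was at 64.2 to 103 CPM in homozygous HCs and at 244 to 382 CPM in wild-type HCs. In every other panel homozygous and wild-type points overlap, and Ttll6 was at 0 throughout. Over all genes tested, homozygous and wild-type libraries did not overlap for 16.9%.

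Ttll3 shares 283 exon bases (5.61% of its exon length) with its neighbour Arpc4, which encodes a subunit of the actin-nucleating Arp2/3 complex and lies on the same strand. Reads there could be counted for neither gene or for the wrong one. Arpc4 had 103 to 136 CPM in homozygous, 80.2 to 122 CPM in heterozygous and 34.9 to 119 CPM in wild-type HCs, and its log2 fold change was 0.48 (SE 0.36, edgeR adjusted p = 0.629) in homozygous against wild-type HCs.

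The summed HC markers were also lower in homozygous HCs, with a mean of 8919 ± 775 CPM, against 12755 ± 2189 CPM in wild-type HCs (SD, n = 3 each). Otof, which encodes otoferlin of the HC synapse, made up most of that gap, with 2522 ± 645 CPM in homozygous and 4983 ± 1808 CPM in wild-type HCs. Its log2 fold change was −1.07, and those of Espn, Myo7a and Gfi1 were −1.18, −0.88 and −0.69. For these 3 genes the homozygous and wild-type libraries did not overlap, where this held for 16.9% of all genes. The log2 fold changes of Pou4f3, Cib2, Myo6 and Atoh1 were 0.03, 0.04, −0.10 and −0.11. Set against the sum of all 8 markers, a scale chosen after seeing the data, Ttll3 had 6.54 to 12.2 CPM per 1000 CPM of HC markers in homozygous HCs. It had 11.7 to 24.6 in heterozygous HCs and 23.0 to 26.8 in wild-type HCs. On this scale the homozygous and wild-type libraries still did not overlap, and the mean was 2.71-fold lower in homozygous HCs. Against the 7 markers other than Otof it was 3.10-fold lower. In RNA from pooled cells, fewer cells that express a gene and less RNA per cell cannot be told apart.

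Genes of the motile cilium, such as Foxj1 and the dyneins Dnah5 and Dnah9, were present in all libraries, with sums of 1100 to 1138 CPM in homozygous, 1213 to 1301 CPM in heterozygous and 1144 to 1285 CPM in wild-type HCs. None of the 5 that passed the filter was called between homozygous and wild-type HCs, and Mcidas was at 0. Per 1000 CPM of these genes, also a scale chosen after seeing the data, Ttll3 was 3.59-fold lower in homozygous than in wild-type HCs.

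The homozygous libraries all came from mice with numbers of 47 or lower and held more Ddx3y than Xist. Among the libraries with numbers of 47 or lower, wild-type replicate 44 had 244 CPM of Ttll3 and heterozygous replicate 45 had 117 CPM. Of the libraries with more Ddx3y than Xist, wild-type replicate 55 had 316 CPM and heterozygous replicates 45 and 51 had 117 and 220 CPM. Those with more Xist than Ddx3y were wild-type replicates 44 and 59, with 244 and 382 CPM, and heterozygous replicate 48, with 321 CPM. No homozygous library was among them, so genotype and this class overlapped in part. Replicate 48 was also the heterozygous library that lay inside the wild-type range of Ttll3. With mouse number as a term, the log2 fold change in homozygous against wild-type HCs was −1.46 (SE 0.30). With the Xist and Ddx3y class as a term it was −1.75 (SE 0.37), and Ttll3 was then not called. It was also not called when homozygous replicate 43 was left out (log2 fold change −1.96, SE 0.41). Without homozygous replicate 46 and wild-type replicate 59, both of which stood apart, it was called with a log2 fold change of −2.10 (SE 0.41).

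The other initiating glycylase gene, Ttll8 (chr15:88890633-88954418, minus strand), was low in all genotypes. It had 3.78, 0.22 and 4.04 CPM in homozygous replicates 43, 46 and 47, then 11.4, 9.25 and 6.02 CPM in heterozygous replicates 45, 48 and 51, and 3.89, 6.63 and 10.1 CPM in wild-type replicates 44, 55 and 59. The homozygous libraries lay below all 3 heterozygous libraries but overlapped wild-type replicate 44, and replicate 46 rested on 4 reads. Its log2 fold change in homozygous against wild-type HCs was −1.46 with an SE of 1.45, so the difference was about as large as its error. It was −0.90 without homozygous replicate 46, and −0.48 without that library and wild-type replicate 59.

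Ttll10 (chr4:156034840-156059414, minus strand) encodes the enzyme that lengthens glycine chains in mouse. It had 11.9, 1.27 and 18.8 CPM in homozygous, 18.6, 22.4 and 11.2 CPM in heterozygous and 9.03, 28.5 and 26.9 CPM in wild-type HCs, in the same replicate order. The 3 genotypes overlapped, with homozygous replicate 46 (23 reads) the lowest library and wild-type replicate 44 the next. The log2 fold change was −1.11 (SE 0.87) in homozygous against wild-type HCs. Without homozygous replicate 46 and wild-type replicate 59, the values that remained were 11.9 and 18.8 CPM in homozygous HCs and 9.03 and 28.5 CPM in wild-type HCs, and the log2 fold change was −0.35.

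Among the glutamylases, Ttll1 had a positive fold change in homozygous against wild-type HCs. It encodes the catalytic subunit of a multi-subunit polyglutamylase and lies at chr15:83483769-83510893. It had 50.8, 47.5 and 62.9 CPM in homozygous, 33.0, 60.9 and 57.8 CPM in heterozygous and 38.7, 49.3 and 7.01 CPM in wild-type HCs. Wild-type replicate 59 was far below the other 8 libraries, and without it the homozygous and wild-type ranges still overlapped. The log2 fold change was 0.70 (SE 0.52), and 0.23 (SE 0.41) without wild-type replicate 59.

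Ttll4 and Ttll5 encode enzymes that add the first glutamate. Ttll4, which also acts on nucleosome assembly proteins, had 71.0, 108 and 57.6 CPM in homozygous, 82.8, 79.7 and 88.5 CPM in heterozygous and 72.8, 102 and 99.4 CPM in wild-type HCs. The homozygous libraries reached both below and above the wild-type range, and the log2 fold change was −0.29 (SE 0.33). Ttll5, whose substrates include the ciliary protein RPGR, had 31.4, 17.4 and 15.1 CPM in homozygous, 23.4, 29.8 and 31.8 CPM in heterozygous and 33.3, 43.4 and 15.0 CPM in wild-type HCs. Its log2 fold change was −0.60 (SE 0.56), and the lowest homozygous and the lowest wild-type library had nearly the same value.

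Ttll7 encodes a glutamylase of beta-tubulin that is abundant in neurons. It had 89.7, 67.5 and 82.9 CPM in homozygous, 156, 74.3 and 89.3 CPM in heterozygous and 123, 95.2 and 84.3 CPM in wild-type HCs. The genotypes overlapped, heterozygous replicate 45 was the highest library, and the log2 fold change was −0.41 (SE 0.33) in homozygous against wild-type HCs.

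Ttll9, a glutamylase gene known from sperm flagella in mouse, had 7.59, 12.5 and 19.8 CPM in homozygous, 12.2, 16.4 and 13.1 CPM in heterozygous and 23.1, 6.60 and 27.3 CPM in wild-type HCs. Its log2 fold change was −0.60 (SE 0.81), and 0.40 (SE 1.14) with the Xist and Ddx3y class as a term. Ttll11, which encodes an enzyme that lengthens glutamate chains, had 24.5, 7.04 and 16.8 CPM in homozygous, 4.17, 8.35 and 19.6 CPM in heterozygous and 35.1, 19.9 and 0.41 CPM in wild-type HCs. Its wild-type libraries spanned 8 to 785 reads, and its log2 fold change was −0.26 (SE 1.04). That direction was not stable, with 0.45 from limma-voom, 0.61 without wild-type replicate 44 and 0.12 without homozygous replicate 46. Ttll6, another elongating glutamylase gene (chr11:96133786-96165451), had 0 reads in all 9 libraries. With 3 counts as the limit that a count of 0 allows, its level was below 0.09 to 0.17 CPM, depending on the library, and it entered no fit. These limits cover counting error only.

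**Figure D2:**
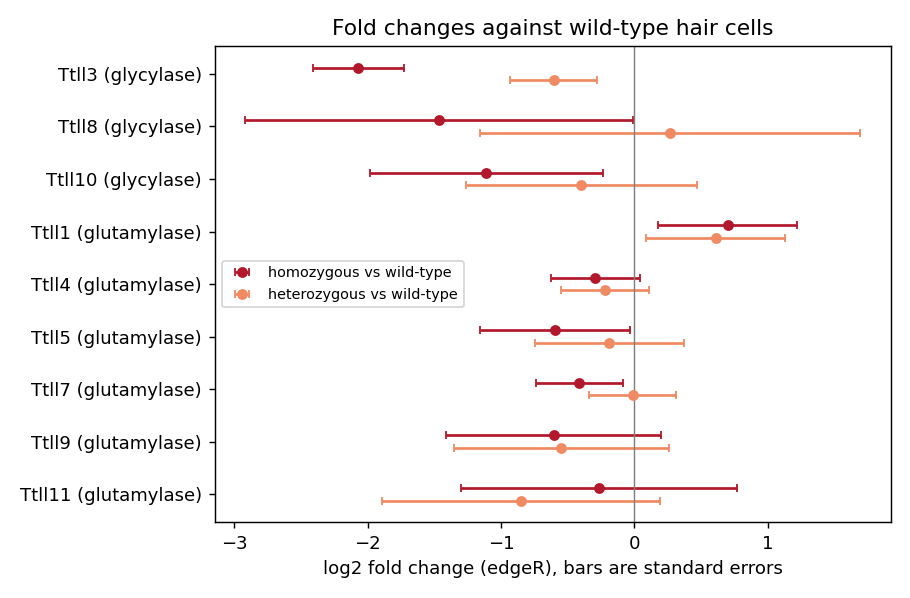
log2 fold changes of the 9 members that passed the filter, homozygous against wild-type (dark red) and heterozygous against wild-type (orange). Bars are standard errors derived from the edgeR tests. Both comparisons share the 3 wild-type libraries. Ttll3 was at −2.07 in homozygous against wild-type HCs, and the bars of Ttll8 and Ttll10 were 1.45 and 0.87 long on each side.

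Calls required a fold change above 1.5 and an adjusted p under a false discovery rate of 10%. In homozygous against wild-type HCs, 1 of the 9 members, Ttll3, was called lower and 0 were called higher, where 1.15% of all genes were called (175 genes). DESeq2 and limma-voom also called 1 member each, where they called 6.32% and 2.23% of all genes. The CPM of the 2 genotypes did not overlap for 1 member, again Ttll3, where this held for 16.9% of all genes. Ranked by log2 fold change in this comparison, Ttll3 had rank 890 from the lowest of 15184 genes. The median log2 fold change was −1.46 over the 3 glycylases and −0.35 over the 6 glutamylases that passed the filter, against −0.02 over all genes. The glycylase median is the value of Ttll8, which rests on low counts and moved with single libraries. Since these same differences were known when the members were picked, nothing is read from these counts.

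In heterozygous against wild-type HCs, 0 of the 9 members were called by edgeR, by DESeq2 and by limma-voom, and 0 of the 9 had an unadjusted p under 0.05. Of all genes, 0% were called by edgeR in this comparison (4.52% had an unadjusted p under 0.05, DESeq2 called 0.296% and limma-voom 0.00659%). Ttll3 had a log2 fold change of −0.61 (SE 0.33), Ttll1 of 0.61, Ttll8 of 0.27, Ttll11 of −0.85 and Ttll7 of −0.01. No member's heterozygous and wild-type libraries were apart, where 10.9% of all genes were. Without heterozygous replicate 45 the log2 fold change of Ttll3 was −0.27, and without replicate 48 it was −1.01, so it turned on single libraries.

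In homozygous against heterozygous HCs, 0 of the 9 members were called by edgeR, which called 0.00659% of all genes (1 gene). 1 member had an unadjusted p under 0.05, where 6.78% of all genes did. DESeq2 and limma-voom each called Ttll3, where they called 0.962% and 0.994% of all genes. edgeR called it too without heterozygous replicate 45 (log2 fold change −1.78). The libraries of the 2 genotypes were apart for 2 members, the glycylases Ttll3 and Ttll8, where 14.1% of all genes were apart.

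Levels of different genes can be compared only per length, so CPM was divided by the kilobases of annotated exon of each gene. In wild-type HCs the order was Ttll3 (62.3 ± 13.7 CPM per kb), Ttll7 (12.2 ± 2.38), Ttll1 (10.9 ± 7.55), Ttll4 (7.93 ± 1.40), Ttll9 (5.44 ± 3.13), Ttll10 (5.39 ± 2.71), Ttll11 (4.59 ± 4.32), Ttll8 (2.01 ± 0.91) and Ttll5 (1.93 ± 0.91), with Ttll6 at 0 (SD, n = 3). Ttll3 was 5.12-fold above Ttll7, and the ranges of the 2 did not overlap. From Ttll7 down to Ttll5, each neighbour in the order overlapped the next, so the order of neighbours is not fixed by these libraries. Members further apart could differ. The wild-type range of Ttll7 (10.2 to 14.8 CPM per kb) lay above those of Ttll4 (6.32 to 8.83) and of every member after it. The exon length joins all annotated transcripts, and at 15.9 kb it is long for Ttll5, which lowers its value.

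In homozygous HCs the order began with Ttll1 (18.5 ± 2.78 CPM per kb) and Ttll3 (15.8 ± 4.05), whose ranges overlapped, then Ttll7 (9.68 ± 1.38). In heterozygous HCs Ttll3 was again first (43.5 ± 20.3 CPM per kb), ahead of Ttll1 (17.4 ± 5.26) and Ttll7 (12.9 ± 5.24).

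The 3 glycylases together had 19.2 ± 1.33 CPM per kb in homozygous, 50.5 ± 20.5 in heterozygous and 69.7 ± 16.97 in wild-type HCs, a sum that was 3.62-fold lower in homozygous than in wild-type HCs. The 7 glutamylases together had 44.2 ± 3.58 CPM per kb in homozygous, 45.9 ± 2.82 in heterozygous and 42.9 ± 11.4 in wild-type HCs, and the ratio of the homozygous to the wild-type mean was 1.03. That ratio was 0.89 without wild-type replicate 59, 0.93 without that library and homozygous replicate 46, and 0.90 for summed CPM, so its direction was not fixed. The glycylase share of the whole sum was 30.4 ± 3.12% in homozygous, 50.9 ± 9.79% in heterozygous and 61.5 ± 12.03% in wild-type HCs (SD, n = 3 each). Homozygous libraries spanned 28.2 to 34.0%, heterozygous libraries 41.9 to 61.3% and wild-type libraries 49.98 to 74.0%. The homozygous libraries lay below all others, and heterozygous and wild-type libraries overlapped. Without homozygous replicate 46 the mean share was 28.6% in homozygous HCs, and without wild-type replicate 59 it was 55.3% in wild-type HCs.

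The share followed Ttll3, which made up 68.4 to 98.2% of the glycylase sum in homozygous, 74.3 to 90.5% in heterozygous and 87.4 to 93.4% in wild-type HCs. Without Ttll3 the glycylase share was 6.79 ± 5.24% in homozygous, 13.2 ± 4.04% in heterozygous and 15.6 ± 9.14% in wild-type HCs, and the homozygous range of 0.94 to 11.1% overlapped the wild-type range of 6.15 to 24.4%.

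**Figure D3:**
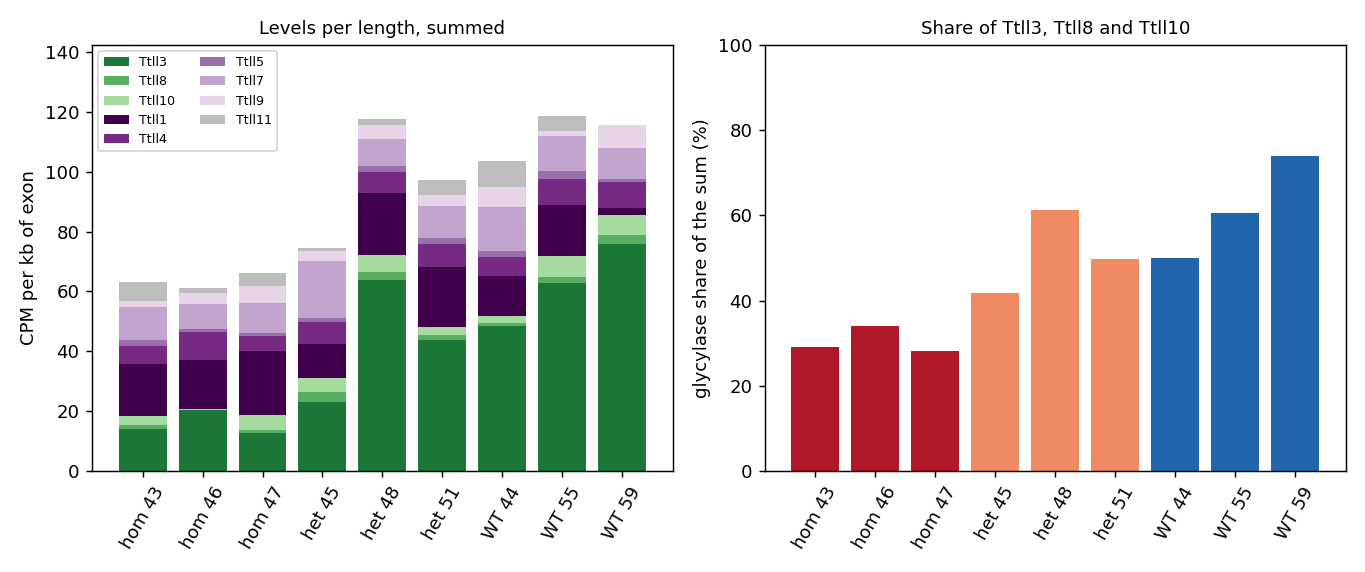
Left, summed levels of the members in CPM per kb of exon, stacked by gene for each library (glycylases green, glutamylases purple, Ttll11 grey). Right, the glycylase share of that sum in percent. The glycylase share was 28.2 to 34.0% in the 3 homozygous libraries (left in each panel), 41.9 to 61.3% in the heterozygous ones and 49.98 to 74.0% in the wild-type ones.

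The spread between animals of 1 genotype differed among the members. The SD within genotypes of log2(CPM + 0.1) was 0.31 for Ttll4 and 0.38 for Ttll7, against a median of 0.73 over all genes tested, and 0.51 for Ttll3. It was 1.31 for Ttll8, 1.32 for Ttll10 and 2.09 for Ttll11, which ranked above 65.5%, 65.7% and 82.7% of all genes. These 3 members averaged at most 21.5 CPM in any genotype. Ttll9 averaged at most 19.0 CPM, and its SD was 0.76, above that of 51.9% of all genes.

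The other genes of the tubulin code, the set of tubulin variants and modifications, were listed by what they do. Of 45 such genes, 39 passed the filter, and 0 were called by edgeR in homozygous against wild-type HCs (5 had an unadjusted p under 0.05, DESeq2 called 1 and limma-voom 0). Over all genes, 13.1% had an unadjusted p under 0.05 in this comparison, DESeq2 called 6.32% and limma-voom 2.23%. 19 had a log2 fold change above 0 and 20 below, with a median of −0.0047, against −0.02 over all genes. In heterozygous against wild-type HCs, edgeR, DESeq2 and limma-voom each called 0 of the 39, and 0 had an unadjusted p under 0.05. In homozygous against heterozygous HCs each called 0, and 4 had an unadjusted p under 0.05, where 6.78% of all genes did.

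Ttl encodes tubulin tyrosine ligase, the enzyme that puts tyrosine back on alpha-tubulin and after which the family is named. It had 47.2, 60.1 and 79.9 CPM in homozygous, 36.9, 31.4 and 41.7 CPM in heterozygous and 32.3, 29.2 and 11.6 CPM in wild-type HCs. Every homozygous library lay above every heterozygous and wild-type library, and wild-type replicate 59, which stood apart, was the lowest. Homozygous and wild-type libraries did not overlap for 7 of the 39 tubulin code genes and for 16.9% of all genes. Homozygous and heterozygous libraries did not overlap for 10 of the 39 and for 14.1% of all genes. The log2 fold change was 1.29 (SE 0.46) in homozygous against wild-type HCs, and it did not pass the edgeR test (adjusted p = 0.240), though DESeq2 called it. Ttll12, whose product has no established ligase activity, had 58.3 ± 10.8 CPM in homozygous and 42.8 ± 27.5 CPM in wild-type HCs (SD, n = 3 each), and its log2 fold change was 0.36 (SE 0.49, edgeR adjusted p = 0.822). Ttll13, an elongating glutamylase gene, had 3.42, 5.997 and 15.6 CPM in homozygous HCs and 0.13, 4.53 and 0.10 CPM in wild-type HCs, where 2 libraries rested on 3 and 2 reads (log2 fold change 2.32, SE 1.74, edgeR adjusted p = 0.628). Ttll2 was at 0 in all libraries.

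The partners of TTLL1 in the polyglutamylase complex and the factors that bring the enzymes to cilia gave 0 calls of 6. Tpgs1 had 83.9 ± 32.4 CPM in homozygous HCs and 53.1 ± 20.02 CPM in wild-type HCs (SD, n = 3 each), with a log2 fold change of 0.57 (SE 0.41, edgeR adjusted p = 0.605). The log2 fold changes of the others were −0.42 for Tpgs2, 0.45 for Lrrc49, 0.48 for Nicn1, 0.28 for Cep41 and 0.42 for Ccsap. 5 of the 6 were above 0, and the edgeR adjusted p of Tpgs1 was the lowest of the 6.

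The deglutamylases, which remove glutamate from the tails, gave 0 calls of the 5 that passed the filter. Agtpbp1, whose loss causes neurodegeneration in mouse, had 29.2 ± 18.9 CPM in homozygous HCs and 44.6 ± 23.1 CPM in wild-type HCs (SD, n = 3 each), with a log2 fold change of −0.71 (SE 0.55, edgeR adjusted p = 0.641). The log2 fold changes were −0.32 for Agbl2, 0.67 for Agbl3, −0.12 for Agbl4 and −0.10 for Agbl5. Agbl1 did not pass the filter.

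Of the enzymes of other marks, the severing proteins and the tubulins, the fold changes with an unadjusted p under 0.05 were those of Vash2, Spast, Tubb2a and Tubb2b, and all 4 were negative. These 4 were named after their values were seen. Vash2, which encodes a carboxypeptidase that removes tyrosine, had a log2 fold change of −0.70 (SE 0.33, edgeR adjusted p = 0.364), and Spast, which encodes the severing enzyme spastin, of −0.85 (SE 0.41, edgeR adjusted p = 0.380). Tubb2a, a beta-tubulin gene, had 86.6, 21.3 and 64.7 CPM in homozygous, 75.1, 119 and 92.3 CPM in heterozygous and 130, 97.4 and 135 CPM in wild-type HCs (log2 fold change −1.17, SE 0.40, edgeR adjusted p = 0.213). Tubb2b had a log2 fold change of −0.74 (SE 0.33, edgeR adjusted p = 0.348). Tubb2a and Tubb2b are close copies, so reads may have been split between them.

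**Figure D4:**
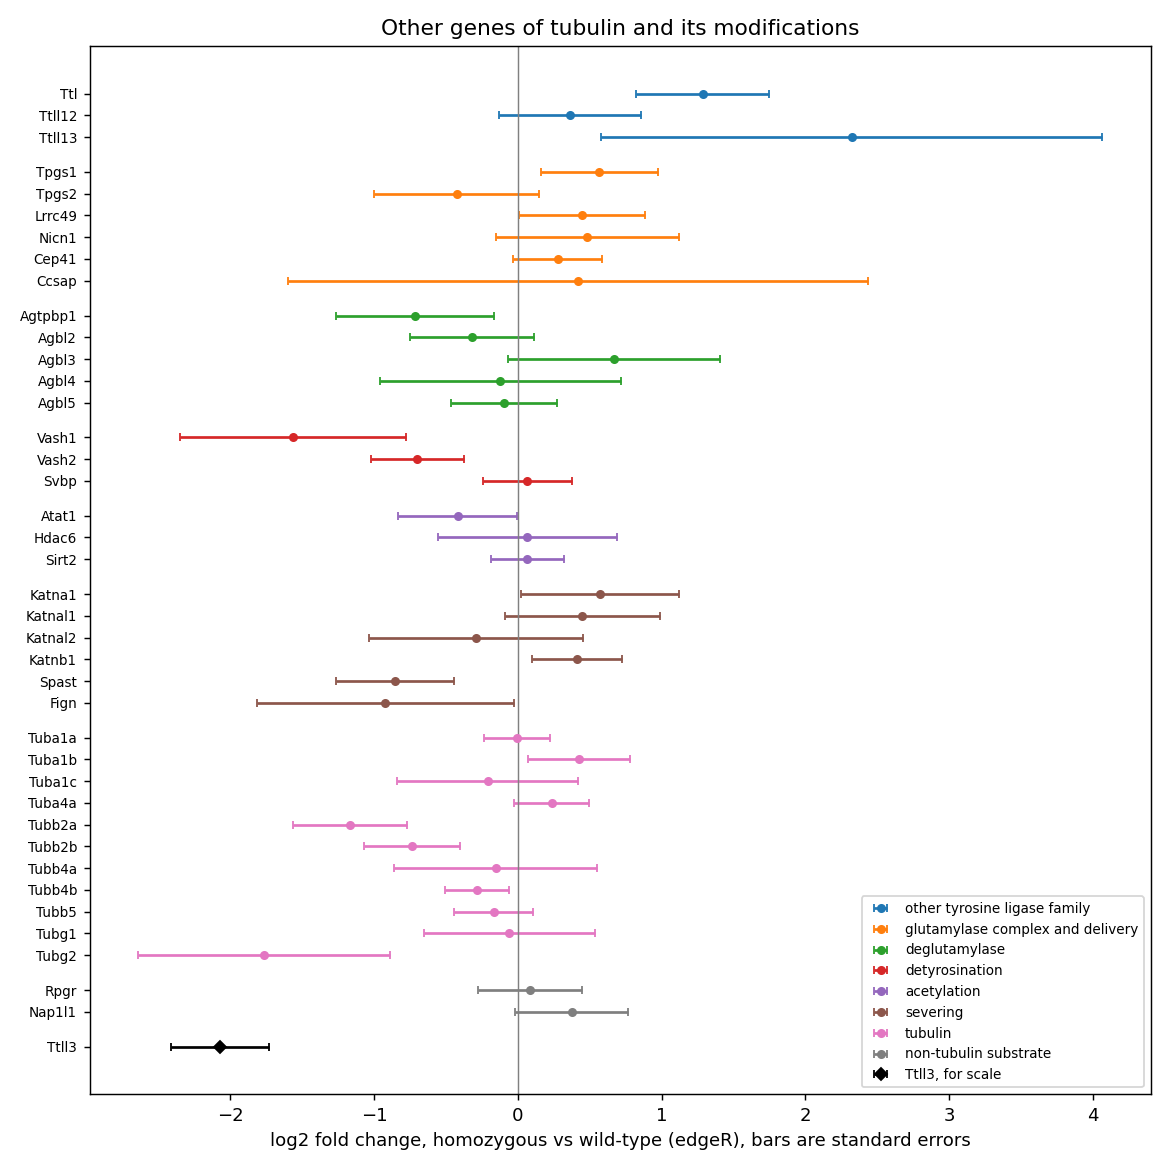
log2 fold changes in homozygous against wild-type HCs of the 39 other tubulin code genes that passed the filter, coloured by group. Bars are standard errors derived from the edgeR tests. Ttll3 is drawn in black at −2.07 for scale; Ttl was at 1.29 and Tubb2a at −1.17, and none of the 39 was called by edgeR.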

How the data were processed

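Per the labels and the study's methods, RNA of the sorted cells was made into libraries with a directional kit and PCR, and reads were aligned by the authors with HISAT2 2.0.4 (genome build GRCm38) and counted with HTSeq, and genes were annotated from BioMart (the HTSeq version and strand setting are not given in the sources used here). The deposited values are raw counts per gene, 1 table for each of the 9 libraries. CPM was the count divided by the library total and scaled to 1000000. The members and gene lists were chosen with earlier results of these data known. Genes with at least 20 reads in at least 2 of 3 replicates of any genotype were tested in edgeR 4.0.16 (R 4.3.3, TMM, robust quasi-likelihood fit of all 9 libraries, Benjamini-Hochberg adjustment over 15184 genes). The code was also run on simulated counts. They were drawn with the spread fitted to these libraries, so that run was a check of the code and not of the calls. The study used DESeq2; here DESeq2 1.42.0 and limma 3.58.1 (voom with quality weights) were alternatives, beside other normalizations, filters, terms and left-out libraries. Named were all members, the family, complex and deglutamylase genes that passed the filter, any called tubulin code gene, Arpc4 and Mir96; Vash2, Spast, Tubb2a, Tubb2b and genes at or near 0 were named after their values were seen. Loci, exon lengths and 3′ UTRs came from GENCODE M21, which held 43756 of the 43808 gene IDs. Libraries are separate mice, so p-values cover the spread between animals of 1 genotype. This edgeR test gives no SE, so each SE printed is the absolute log2 fold change divided by the square root of the test's F statistic.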

Additional observations from a re-analysis of the deposited data

How the results depend on the processing

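Across 20 alternatives the log2 fold change of Ttll3 in homozygous against wild-type HCs ran from −2.29 to −1.46, a description of values known when the members were chosen. On the scales chosen after seeing the data, it was −1.44 relative to HC markers, −1.63 relative to those other than Otof and −1.84 relative to motile cilium genes. The count of called members was 0 with the Xist and Ddx3y term, and 0 to 1 when each library was left out, with 0 without homozygous replicate 43. In homozygous against heterozygous HCs, 1 member (Ttll3) was called with DESeq2, with limma-voom and with no filter, and 0 to 1 when each library was left out. Of the other tubulin code genes, 1 was called with DESeq2 (Ttl) and 1 with no filter (Tubb2a). Over all genes in homozygous against wild-type HCs, 175 were called, against 959 with DESeq2, 338 with limma-voom, 562 with no filter, 61 at a false discovery rate of 5%, 25 with the mouse number term, 12 with the Xist and Ddx3y term, 23 without homozygous replicate 46 and wild-type replicate 59, and 20 to 697 when each library was left out. In heterozygous against wild-type HCs, DESeq2 called 45, and in homozygous against heterozygous HCs it called 146, limma-voom 151 and no filter 69. The glycylase share from summed CPM was 26.0% in homozygous, 44.3% in heterozygous and 53.7% in wild-type HCs. The share from CPM per kb was 6.79%, 13.2% and 15.6% in the same order without Ttll3. When each library was left out, the share from CPM per kb was 28.6 to 31.5% in homozygous, 45.7 to 55.5% in heterozygous and 55.3 to 67.3% in wild-type HCs. The cause of these shifts was not tested. No paired analysis was made. The replicate numbers are mouse numbers and the labels give no litter, though the study describes its wild-type controls as littermates. Ttll8 had 4 to 337 reads and Ttll11 had 8 to 785. The 785 and 8 reads of Ttll11 were in wild-type replicates 44 and 59, which held 22379893 and 19677015 counts. The cause of this spread was not tested.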
